A study of Mus musculus with 8 samples.

Results

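The machinery that cuts, polyadenylates and shortens the 3′ ends of mRNA was followed in the cortex of mice that expressed a cytoplasmic human TDP-43. Its members were the genes whose symbols begin with Cpsf, Cstf, Papol or Pabp, or with Ints or Cnot and a number, together with a set of named partners such as Nudt21, Pcf11, Clp1, Sympk, Ssu72, Slbp, Lsm11 and Ncbp1. The rule found 52 genes among the 10601 genes with a symbol, and all 52 passed the filter on low values, 49 of them in every mouse. The bigenic mice carried Camk2a-tTa and deltaNLS-hTDP-43, which is a human TDP-43 with a disabled nuclear localization signal under a tet-off promoter, on a C57BL/6 background. The transgene was switched on by withdrawing doxycycline from mice aged 28 days, and 10 days later RNA was taken from the right cortex of 4 bigenic animals and of 4 nontransgenic animals kept on the same diet schedule. Camk2a drives the transactivator mainly in excitatory forebrain neurons, whereas the RNA came from all cells of the cortex, so that fewer cells of a type and less RNA per cell cannot be told apart.

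Most mRNA 3′ ends are made by cleavage of the nascent transcript downstream of an AAUAAA hexamer, followed by addition of a poly(A) tail. CPSF (cleavage and polyadenylation specificity factor) reads the hexamer and holds the endonuclease, CstF (cleavage stimulation factor) binds GU-rich sequence downstream of the cut, and cleavage factors I and II help to choose and carry out the cut. Poly(A) polymerases add the tail, poly(A) binding proteins coat it, and the CCR4-NOT complex removes it again in the cytoplasm. Integrator cleaves the 3′ ends of small nuclear RNAs and of transcripts released early by RNA polymerase II. Histone mRNAs of dividing cells end in a stem-loop without a tail, which is bound by Slbp and cut by a complex that shares subunits with CPSF. TDP-43 itself is an RNA binding protein with a preference for UG repeats.

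The genes of this machinery carry the same signal that their products read. Within the last 50 bases of the annotated 3′ end, 75.0% of the 52 members had AATAAA or ATTAAA on the transcribed strand, against 74.9% of the 10067 genes tested that were found in the annotation, which are nearly equal shares. The windows below show the hexamer, in capitals, for 8 members whose level differed between the groups. All were read from the mm9 (NCBIM37) genome, 5′ to 3′ on the strand of the gene.
Pabpc1, chr15:36525419-36525448, minus strand: aattcttgctttAATAAAaattccttaaac
Pabpc4, chr4:122976037-122976066, plus strand: tcaaataaaggaAATAAAatctccataaat
Cstf3, chr2:104505550-104505579, plus strand: tcctttgaaaggAATAAAaggacctcaaaa
Cstf2, chrX:130618954-130618983, plus strand: tctgtgacattaAATAAActttgaacacaa
Sympk, chr7:19639921-19639950, plus strand: tgccttaacacaAATAAAagagggcgtagc
Ssu72, chr4:155107939-155107968, plus strand: tacagaaacctaAATAAAgcaacaggctgt
Ncbp1, chr4:46185238-46185267, plus strand: gaacatggctggAATAAActgcagttatgg
Lsm11, chr11:45741773-45741802, minus strand: tctggaaactgtAATAAAgatgattgtatc

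Because TDP-43 prefers UG repeats, runs of at least 6 TG on the transcribed strand of each gene, introns included, were also counted. Such a run lay in 76.9% of the members and in 74.0% of all genes tested that were found in the annotation. Among the members past the threshold of the test described below the share was 84.6% (11 of 13 genes), and among those not past it 74.4% (29 of 39 genes). With so few genes nothing is read from this contrast. A match describes letters only and is not a binding site. The longest run of Cnot6l, 18 bases, fits whole into a short window, but it lies outside the longest coding transcript and is not shown. For 3 other members past the threshold whose longest run fits whole and lies in an intron, the run is shown in capitals.
Cpsf3, chr12:21312828-21312857, plus strand: gagggTGTGTGTGTGTGTGTGTGTGggtgt
Eri1, chr8:36544184-36544213, minus strand: gtgcgTGTGTGTGTGTGTGcgtgcactcac
Ssu72, chr4:155085328-155085357, plus strand: atataTGTGTGTGTGTGcttgtacatatgt

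Values are normalized counts, which are reads on a gene's exons after scaling of each mouse by the authors. Between 10.6 M and 31.9 M reads per mouse lay on genes, an estimate from the gaps between the deposited whole numbers. By this estimate bigenic mouse 2 (mice are numbered in the order of the deposited columns) had the fewest reads. It stood apart from the other bigenic mice, with correlations of 0.950 to 0.953 with them. Correlations were 0.980 to 0.996 among the other 3 and 0.979 to 0.993 among the nontransgenic mice. Exons of 11 members overlap those of another coding gene, among them, besides those given with their values, Ints12 (Gstcd), Cnot3 (Leng1), Cnot7 (Zdhhc2), Cpsf1 (Adck5), Cpsf7 (Tmem216), Zc3h14 (Eml5) and Pabpn1 (Gm20521), and their counts may hold reads of both. Bigenic mouse 2 held the highest bigenic value in 24 of the 52 members and the lowest in 19. Among all 10588 genes tested it was the highest in 4560 and the lowest in 4069, so this is not particular to the members. The log2 difference of each named member is also given without that mouse. Summed normalized counts of 7 neuronal markers were 115672 to 150217 in bigenic and 161714 to 177768 in nontransgenic mice, with 4 of 7 markers lower and 1 higher. Of the glial and vascular markers tested, 4 of 6 astrocyte, 5 of 6 microglial and 1 of 3 endothelial genes were lower, and 1 of 6 oligodendrocyte genes was higher. Choroid plexus markers were higher for 4 of 4 genes tested, with sums of 8385 to 19459 against 363 to 1203. No marker tested was at 0 in any mouse, and the 4 blood markers were not among the genes tested. The part of these markers in the differences below was not tested.

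Across the 52 members, 13 differed between bigenic and nontransgenic mice at an adjusted p below 0.05 (limma on log2(normalized count + 1), adjusted over all 10588 genes tested). Of these, 8 were higher and 5 lower in the bigenic mice. This is 25.0% of the members, against 35.9% of all genes tested (20.5% higher and 15.4% lower), and a share that does not exceed the background is no result about the members. The fitted log2 differences of the members had a median of 0.08, against 0.03 for all genes tested, and ran from -0.57 to 0.80, with 30 positive and 22 negative. The values of the 2 groups did not overlap for 15 members, against 39.0% of all genes tested. Without bigenic mouse 2, 19 members passed the threshold, 12 higher and 7 lower, or 36.5%, against 45.6% of 10481 genes. All 13 members stayed past the threshold without that mouse.

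**Figure D1:**
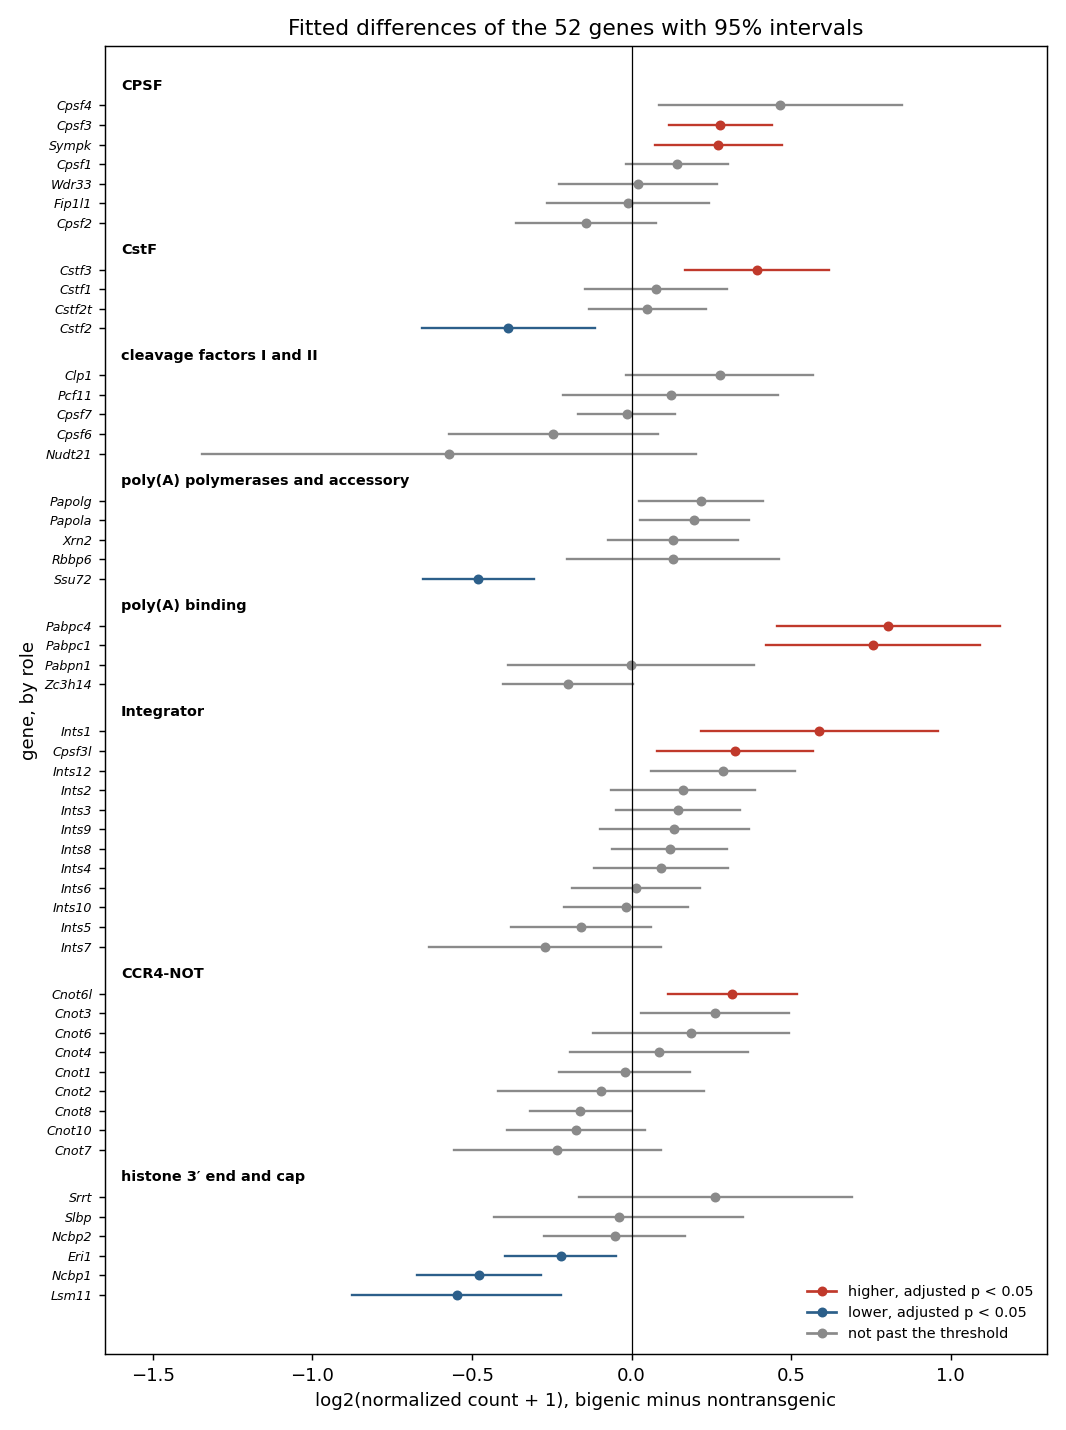
Fitted difference of each of the 52 genes (horizontal axis, log2(normalized count + 1), bigenic minus nontransgenic, n = 4 mice each) with its 95% interval as a bar, grouped by role. The 8 genes in red were higher and the 5 in blue lower at an adjusted p below 0.05. The members range from Nudt21 at -0.57 to Pabpc4 at 0.80.

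The largest differences were in the proteins that bind the poly(A) tail in the cytoplasm. Pabpc1 (uc007vmx.2, chr15:36525416-36538728, minus strand, 15 exons), the main cytoplasmic poly(A) binding protein and a partner of translation initiation, had 7618, 10467, 6237 and 6276 normalized counts in bigenic mice 1 to 4. In nontransgenic mice 1 to 4 it had 4501, 4318, 4204 and 4701. Every bigenic mouse was above every nontransgenic mouse, and bigenic mouse 2 was the highest. The mean was 1.73-fold higher, with a log2 difference of 0.76 ± 0.15 (SE, limma adjusted p = 0.00407), and of 0.59 without bigenic mouse 2. Pabpc4 (uc008upb.1, chr4:122939594-122976168, plus strand, 15 exons), an inducible paralog of Pabpc1, had 229, 304, 228 and 208 normalized counts in bigenic mice. It had 133, 133, 165 and 120 in nontransgenic mice, again with no overlap. Its mean was 1.76-fold higher, with a log2 difference of 0.80 ± 0.16 (SE, limma adjusted p = 0.00356), and of 0.69 without bigenic mouse 2. These 2 genes have related copies in the genome, and only 71.0% of the 50-base windows of the exons of Pabpc1 and 29.6% of those of Pabpc4 occur once, so that many of their reads could not be kept by unique mapping and the levels are uncertain.

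The nuclear poly(A) binding proteins did not follow. Pabpn1, which coats the growing tail in the nucleus, had 2195, 3400, 2077 and 1903 normalized counts in bigenic and 2033, 2208, 2390 and 2756 in nontransgenic mice. The groups overlapped, and the interval of the log2 difference ran from -0.39 to 0.38 (limma adjusted p = 0.997). The difference was -0.18 without bigenic mouse 2. Zc3h14, a zinc finger protein that binds poly(A), had a log2 difference of -0.20, with an interval from -0.40 to 0.00 (limma adjusted p = 0.113), and of -0.16 without bigenic mouse 2. Per kilobase of transcript, Pabpc1 stood at 2715 normalized counts in bigenic and 1573 in nontransgenic mice. Pabpn1 stood at 1349 and 1322 on that scale, and Pabpc4 at 80.2 and 45.6.

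**Figure D2:**
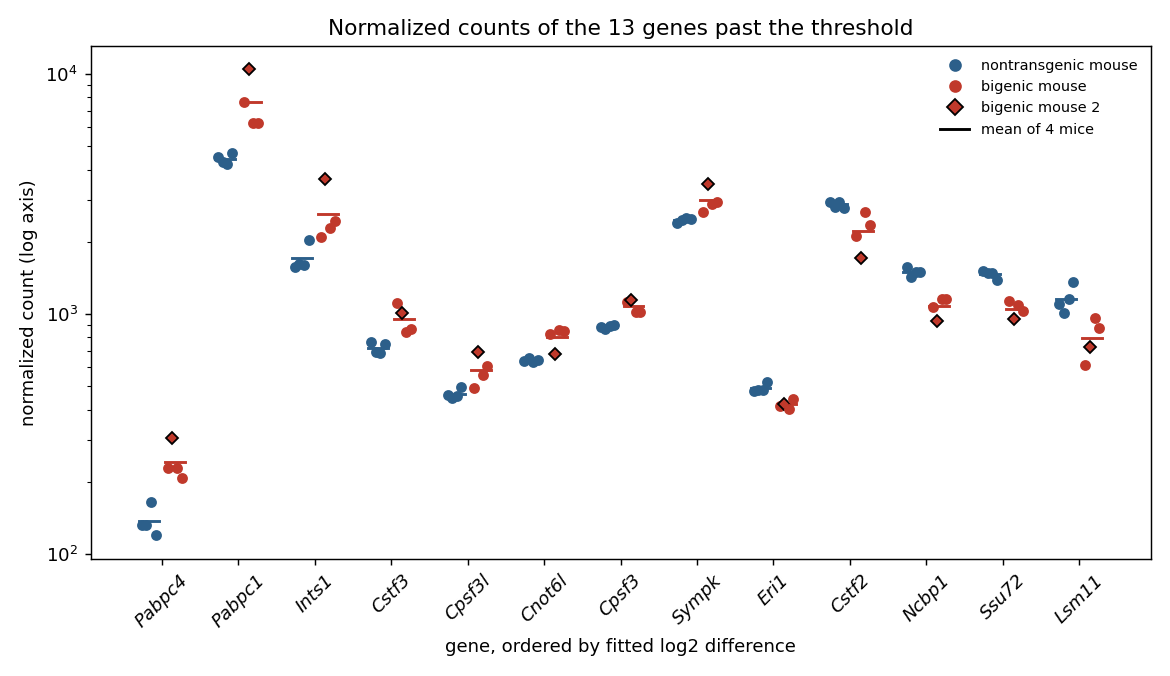
Normalized counts (vertical axis, log scale) of the 13 genes past the threshold in each of the 4 nontransgenic (blue) and 4 bigenic (red) mice, ordered by the fitted log2 difference. Points are mice, the diamond is bigenic mouse 2 and lines are means. The groups do not overlap for 12 of the 13 genes, the exception being Cpsf3l.

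In CPSF, the endonuclease and the scaffold were higher, and none of the 7 genes was lower past the threshold. That is 28.6% past it, against 35.9% of all genes tested, and nothing is read from this count. Cpsf3 (uc007ndp.2, chr12:21292158-21320917, plus strand, 18 exons), the endonuclease that makes the cut, had 1126, 1144, 1021 and 1017 normalized counts in bigenic and 882, 867, 894 and 904 in nontransgenic mice. The mouse with the lowest bigenic value was above every nontransgenic mouse. The mean was 1.21-fold higher, with a log2 difference of 0.28 ± 0.07 (SE, limma adjusted p = 0.0149), and of 0.25 without bigenic mouse 2. The gene also holds the intronic TG run printed above. Sympk (uc009fkh.2, chr7:19609726-19639967, plus strand, 27 exons) codes for symplekin, the scaffold that links CPSF, CstF and the histone cleavage complex. It had 2655, 3491, 2866 and 2940 normalized counts in bigenic and 2389, 2472, 2506 and 2485 in nontransgenic mice. The groups did not overlap, with bigenic mouse 2 far above the rest. Sympk thus had a log2 difference of 0.27 ± 0.09 (SE, limma adjusted p = 0.0380), and 0.19 without that mouse. Over the other settings the adjusted p of Sympk ran from 0.000952 to 0.0957, and it stayed below 0.05 in 8 of 16.

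The remaining CPSF subunits did not pass the threshold with all mice. Cpsf4, a zinc finger subunit that contacts the hexamer, had the largest difference of the complex. It had 379, 498, 296 and 344 normalized counts in bigenic and 212, 303, 282 and 290 in nontransgenic mice. Bigenic mouse 3 lay below nontransgenic mouse 2, so that the groups overlapped, and the log2 difference was 0.47 ± 0.17 (SE, limma adjusted p = 0.0571), and 0.33 without bigenic mouse 2. Over the other settings the adjusted p of Cpsf4 ran from 0.0287, without bigenic mouse 3, to 0.153, with 2 of 16 below 0.05. Cpsf1, the largest subunit, had higher values in every bigenic mouse but a log2 difference of only 0.14, with an interval from -0.02 to 0.30 (limma adjusted p = 0.144), and of 0.15 without bigenic mouse 2. Wdr33, which binds the hexamer directly, and Fip1l1, which recruits poly(A) polymerase, had log2 differences of 0.02 and -0.01, with intervals from -0.23 to 0.27 and from -0.26 to 0.24. Without bigenic mouse 2 their log2 differences were -0.09 and -0.07, so that the sign for Wdr33 turned. Cpsf2, the partner of Cpsf3 without nuclease activity, was the only subunit whose call changed with bigenic mouse 2. It had 1760, 2025, 1551 and 1519 normalized counts in bigenic and 1953, 1813, 1823 and 1936 in nontransgenic mice. With all mice the log2 difference was -0.14 (limma adjusted p = 0.280), and without bigenic mouse 2, its highest value, it was -0.23 with an adjusted p of 0.0213. The adjusted p over all settings of Cpsf2 ran from 0.00113 to 0.538.

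CstF, a complex of 4 genes here, showed opposite differences in 2 subunits that contact each other. Cstf3 (uc008ljz.2, chr2:104430680-104505586, plus strand, 21 exons), the subunit that bridges the others, had 1109, 1011, 843 and 866 normalized counts in bigenic and 767, 694, 690 and 751 in nontransgenic mice. No bigenic mouse overlapped the nontransgenic mice. The mean was 1.32-fold higher, with a log2 difference of 0.39 ± 0.10 (SE, limma adjusted p = 0.0142), and of 0.36 without bigenic mouse 2. Cstf2 (uc009ufj.1, chrX:130593726-130621358, plus strand, 16 exons), the subunit that binds the GU-rich element, had 2119, 1721, 2669 and 2354 normalized counts in bigenic mice. In nontransgenic mice it had 2934, 2806, 2935 and 2771, and every bigenic mouse was lower. The mean was 22.6% lower, with a log2 difference of -0.39 ± 0.12 (SE, limma adjusted p = 0.0319), and of -0.27 without bigenic mouse 2. Over the other settings its adjusted p ran from 0.00764 to 0.0811, with 11 of 16 below 0.05. Cstf1, the third subunit, had a log2 difference of 0.08 with an interval from -0.14 to 0.30, and of 0.06 without bigenic mouse 2.

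Cstf2t is a copy of Cstf2 without introns on an autosome (chr19:31157331-31161080, plus strand, 1 exon) that codes for a second GU-binding subunit. It had 1919, 2314, 2078 and 2010 normalized counts in bigenic and 2131, 1884, 2072 and 1942 in nontransgenic mice, and the groups overlapped. Its log2 difference was 0.05, with an interval from -0.13 to 0.23 (limma adjusted p = 0.659), and it was -0.0026 without bigenic mouse 2. The ratio of the 2 paralogs within a mouse does not depend on the scaling of the columns. On the log2 scale, Cstf2t to Cstf2 was -0.14, 0.43, -0.36 and -0.23 in bigenic mice 1 to 4 and -0.46, -0.57, -0.50 and -0.51 in nontransgenic mice 1 to 4. Every bigenic mouse had a higher ratio than every nontransgenic mouse, and only in bigenic mouse 2 did Cstf2t exceed Cstf2 in counts. The means differed by 0.44 (-0.08 ± 0.35 against -0.51 ± 0.05, SD, n = 4), with p = 0.0286 in an exact two-sided permutation test, the smallest p that 70 arrangements can give. After adjustment over the 6 pairs examined, the p of this exact permutation test was 0.171, and the difference was 0.27 without bigenic mouse 2.

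The other 5 pairs of paralogs or partners overlapped between the groups, and none had a p below 0.05 in the exact permutation test. The log2 ratio of Papolg to Papola differed by 0.02 (adjusted exact p = 0.857), that of Cnot8 to Cnot7 by 0.07 (adjusted exact p = 0.857, and -0.07 without bigenic mouse 2) and that of Cpsf3l to Cpsf3 by 0.05 (adjusted exact p = 0.857). Without bigenic mouse 2 the ratio of Papolg to Papola differed by 0.09 and that of Cpsf3l to Cpsf3 by -0.01. The ratio of Cnot6l to Cnot6 differed by 0.13 (adjusted exact p = 0.514) and by 0.07 without bigenic mouse 2. That of Cpsf7 to Cpsf6 differed by 0.23 (adjusted exact p = 0.514) and by 0.06 without bigenic mouse 2. In that pair bigenic mouse 2 stood at -0.94, whereas the other bigenic mice lay between -1.72 and -1.46 and the nontransgenic mice between -1.73 and -1.62.

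**Figure D3:**
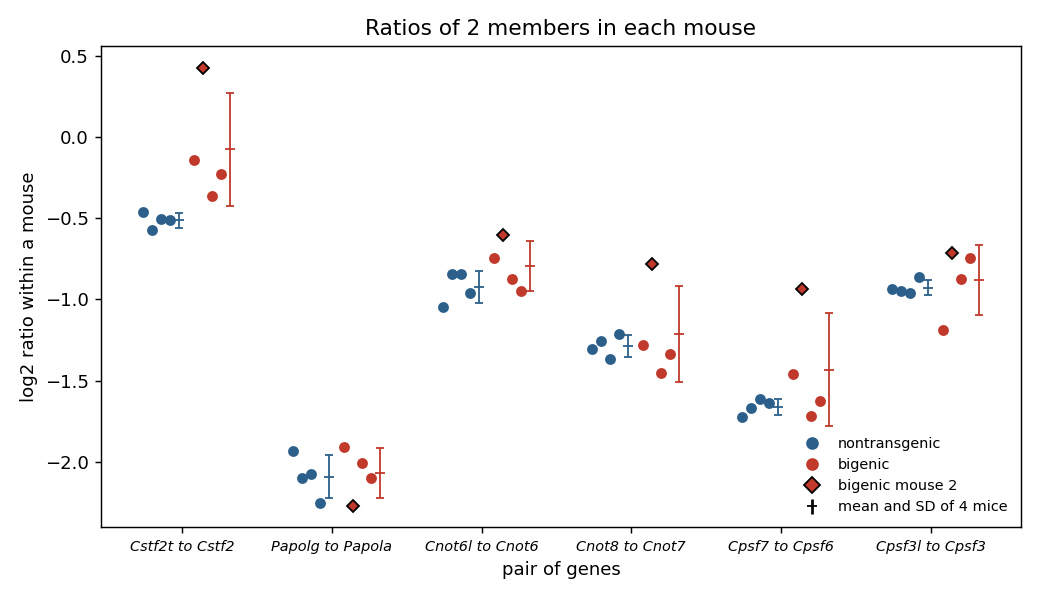
Log2 ratio of the normalized counts of 2 members within each mouse (vertical axis) for the 6 pairs (horizontal axis), nontransgenic in blue and bigenic in red, with the mean and SD of 4 mice as bars. Bigenic mouse 2 is the diamond. The groups are apart only for Cstf2t to Cstf2, where the bigenic mice lie between -0.36 and 0.43 and the nontransgenic mice between -0.57 and -0.46.

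None of the 5 genes of cleavage factors I and II passed the threshold with all mice, and the groups overlapped in each. Of all genes tested 35.9% passed, and the groups did not overlap for 39.0%. With 5 genes nothing is read from these counts. Nudt21, the subunit of cleavage factor I that reads UGUA upstream of the cut and sets the choice between poly(A) sites, had 153, 64, 230 and 218 normalized counts in bigenic and 254, 217, 210 and 210 in nontransgenic mice. The 64 in bigenic mouse 2 was the lowest value of any member in any mouse. The log2 difference was -0.57, with an interval from -1.35 to 0.20 (limma adjusted p = 0.222), and it was -0.17 without bigenic mouse 2 (adjusted p = 0.381), while over all settings the adjusted p ran from 0.111 to 0.800. Only 34.8% of the 50-base windows in its exons occur once in the genome, so that its level too is uncertain. Cpsf6, the larger partner of Nudt21, followed the same order among the bigenic mice, with 3176, 2267, 3845 and 3698 normalized counts in bigenic mice against 3676, 3787, 3771 and 3847. Its log2 difference was -0.24 with all mice and -0.08 without bigenic mouse 2. Cpsf7, the alternative partner, had a log2 difference of -0.02, with an interval from -0.17 to 0.14, and of -0.02 also without bigenic mouse 2.

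In cleavage factor II, Pcf11, which binds the tail of RNA polymerase II and promotes termination, had a log2 difference of 0.12, with an interval from -0.22 to 0.46, and of 0.03 without bigenic mouse 2. Clp1, an RNA kinase that also acts on tRNA, had 293, 211, 241 and 240 normalized counts in bigenic and 194, 184, 200 and 232 in nontransgenic mice. Only bigenic mouse 2 overlapped the nontransgenic mice. Clp1 had a log2 difference of 0.28 (limma adjusted p = 0.125), and without bigenic mouse 2 it was 0.35 with an adjusted p of 0.0371, in a range over settings of 0.00678 to 0.276.

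Of the 5 poly(A) polymerases and accessory factors, Ssu72 alone passed the threshold with all mice, and it had the smallest adjusted p of all members. The share past the threshold was 20.0%, against 35.9% of all genes tested. Without bigenic mouse 2 the share was 60.0%, against 45.6%, and nothing is read from these counts. Ssu72 (uc008wel.2, chr4:155078909-155107988, plus strand, 5 exons) is a phosphatase of the tail of RNA polymerase II that acts at the 3′ ends of genes. It had 1130, 951, 1095 and 1026 normalized counts in bigenic and 1515, 1477, 1480 and 1381 in nontransgenic mice. The highest bigenic mouse was well below the lowest nontransgenic mouse. The mean was 28.2% lower, with a log2 difference of -0.48 ± 0.08 (SE, limma adjusted p = 0.00151), and of -0.43 without bigenic mouse 2. Its exons overlap those of 1500002C15Rik on the opposite strand, and reads of the 2 genes may not be separated, since no strand setting is given for the counting.

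Papola, the canonical nuclear poly(A) polymerase, had 2840, 3067, 3084 and 3156 normalized counts in bigenic and 2571, 2510, 2593 and 2936 in nontransgenic mice. Nontransgenic mouse 4 overlapped the bigenic mice, and the log2 difference was 0.20 ± 0.08 (SE, limma adjusted p = 0.0680). Papolg, a second nuclear polymerase, had 755, 635, 766 and 736 normalized counts in bigenic mice against 671, 584, 615 and 614. Its only overlap came from bigenic mouse 2, and the log2 difference was 0.22 ± 0.09 (SE, limma adjusted p = 0.0771). Without bigenic mouse 2 both polymerases passed the threshold, with log2 differences of 0.19 (adjusted p = 0.0478) for Papola and 0.28 (adjusted p = 0.00767) for Papolg. Over all settings these p ran from 0.000530 to 0.178 for Papola and from 0.000798 to 0.193 for Papolg. Xrn2, the exonuclease that degrades RNA downstream of the cut, and Rbbp6, a scaffold with a ubiquitin ligase domain, each had a log2 difference of 0.13. The interval was -0.07 to 0.33 for Xrn2 and -0.20 to 0.46 for Rbbp6. Without bigenic mouse 2 the differences were 0.09 for Xrn2 and -0.01 for Rbbp6, whose sign turned.

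Integrator, the largest group with 12 genes, had 2 members higher and none lower past the threshold. That is 16.7%, against 35.9% of all genes tested, and nothing is read from this count. Ints1 (uc009ahc.2, chr5:140227236-140251632, minus strand, 47 exons), its largest subunit and scaffold, had 2096, 3656, 2276 and 2431 normalized counts in bigenic and 1578, 1612, 1596 and 2045 in nontransgenic mice. The groups did not overlap, although bigenic mouse 1 lay only just above nontransgenic mouse 4. The mean was 1.53-fold higher, with a log2 difference of 0.59 ± 0.17 (SE, limma adjusted p = 0.0209), and of 0.41 without bigenic mouse 2, the highest. Its adjusted p over the other settings ran from 1.76e-05 to 0.0612. Cpsf3l (uc008wfh.1, chr4:155243655-155263212, plus strand, 17 exons) is the endonuclease subunit of Integrator, a relative of Cpsf3. It had 493, 697, 556 and 606 normalized counts in bigenic and 460, 449, 458 and 498 in nontransgenic mice, so that bigenic mouse 1 fell within the nontransgenic range. The log2 difference was 0.32 ± 0.11 (SE, limma adjusted p = 0.0425), and 0.24 without bigenic mouse 2. Over the other settings its adjusted p ran from 0.000619 to 0.107, with 8 of 16 below 0.05. Its exons overlap those of Pusl1 on the opposite strand.

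The other 10 Integrator genes did not pass the threshold, and their log2 differences ran from -0.27 for Ints7 to 0.29 for Ints12. Ints12, a small subunit with a PHD finger, lay just outside the threshold. It had 247, 294, 277 and 280 normalized counts in bigenic and 244, 218, 219 and 218 in nontransgenic mice, with no overlap (limma adjusted p = 0.0505), and its log2 difference was 0.25 without bigenic mouse 2. Ints7 had 690, 474, 584 and 583 normalized counts in bigenic and 813, 552, 865 and 609 in nontransgenic mice, which overlapped widely (limma adjusted p = 0.218), and its log2 difference was -0.18 without bigenic mouse 2. Ints9, the partner of Cpsf3l in the cleavage module, had a log2 difference of 0.13, with an interval from -0.10 to 0.37, and of 0.14 without bigenic mouse 2. Ints4, which holds that pair together, had 0.09, with an interval from -0.12 to 0.30, and 0.05 without bigenic mouse 2. Of the 12 genes, 9 had a positive and 3 a negative log2 difference, with a median of 0.13 with all mice and of 0.08 without bigenic mouse 2. Over all genes tested 5643 were positive and 4945 negative, with medians of 0.03 and 0.02.

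CCR4-NOT, which removes poly(A) tails, had 1 of 9 genes past the threshold with all mice, or 11.1%, against 35.9% of all genes tested. Cnot6l (uc008yfg.1, chr5:96499352-96593190, minus strand, 12 exons), a deadenylase subunit, had 825, 680, 859 and 854 normalized counts in bigenic and 637, 658, 632 and 646 in nontransgenic mice. The nontransgenic mice spanned a narrow range and all bigenic mice were above it, bigenic mouse 2 by the least. The mean was 1.25-fold higher, with a log2 difference of 0.32 ± 0.09 (SE, limma adjusted p = 0.0214), and of 0.39 without bigenic mouse 2. Its adjusted p over the other settings ran from 1.64e-05 to 0.0612, with 10 of 16 below 0.05. Cnot6, its paralog, had 1385, 1034, 1576 and 1650 normalized counts in bigenic mice against 1316, 1183, 1136 and 1258. Bigenic mouse 2 was below every nontransgenic mouse and the other bigenic mice were above them. Cnot6 differed by 0.19 on the log2 scale (limma adjusted p = 0.315) with all mice and by 0.33 without bigenic mouse 2 (adjusted p = 0.00657), in a range over settings of 0.000110 to 0.597.

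The second pair of deadenylases, Cnot7 and Cnot8, had log2 differences of -0.23 and -0.16. Cnot8 had 813, 780, 802 and 804 normalized counts in bigenic and 939, 919, 888 and 833 in nontransgenic mice, with no overlap but an adjusted p of 0.102 (limma), and its log2 difference was -0.15 without bigenic mouse 2. Cnot7 had an interval from -0.56 to 0.09 and overlapping groups, with its lowest value, 1342, in bigenic mouse 2. Without that mouse the log2 difference of Cnot7 was -0.08 (limma adjusted p = 0.433, in a range over settings of 0.131 to 0.433). Cnot10, a subunit that binds Cnot1, had 1040, 1168, 937 and 860 normalized counts in bigenic and 1120, 1123, 1118 and 1127 in nontransgenic mice. Only bigenic mouse 2 was above the nontransgenic mice. The log2 difference was -0.17 (limma adjusted p = 0.187), and without that mouse it was -0.25 with an adjusted p of 0.0159, and the highest adjusted p with any other mouse left out was 0.421. Cnot1, the scaffold of the complex, had a log2 difference of -0.02, with an interval from -0.23 to 0.18, and of 0.05 without bigenic mouse 2. Cnot3, a regulatory subunit, had 0.26 (limma adjusted p = 0.0736), and 0.22 without bigenic mouse 2.

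**Figure D4:**
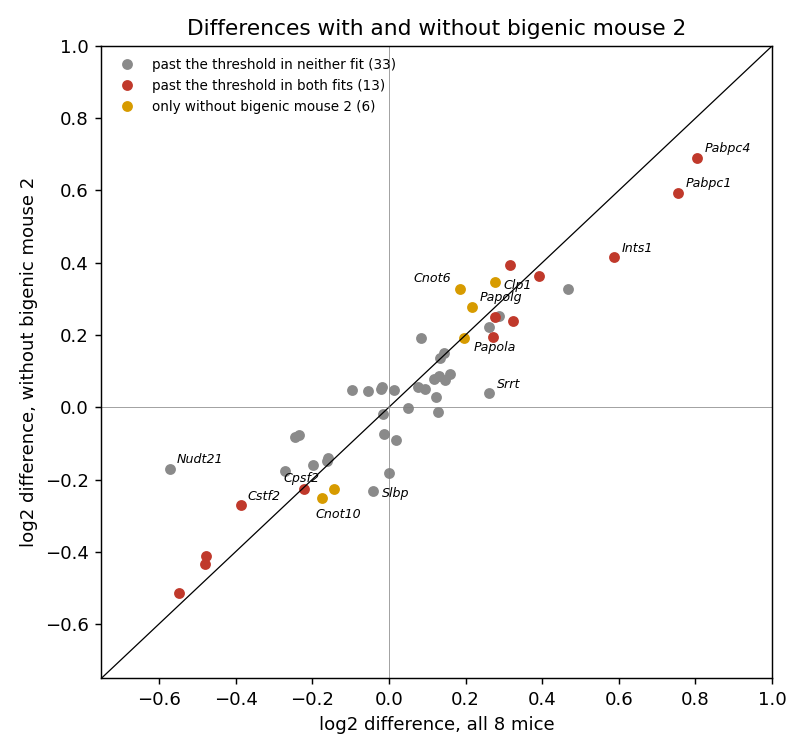
Log2 difference of each of the 52 genes with all 8 mice (horizontal axis) and without bigenic mouse 2 (vertical axis), and the line of equal values. The 13 genes in red passed the threshold in both fits, the 6 in orange only without bigenic mouse 2, and the 33 in grey in neither. Nudt21 moves from -0.57 to -0.17 and Srrt from 0.26 to 0.04.

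Of the 6 genes of histone 3′ ends and of the mRNA cap, 3 were lower and none was higher in the bigenic mice, where 15.4% of all genes tested were lower and 20.5% higher. With 6 genes, and Eri1 past the threshold in only 6 of 16 other settings, nothing is read from this count. Lsm11 (uc007ins.1, chr11:45741771-45758437, minus strand, 4 exons), a ring protein particular to the U7 particle that directs histone cleavage, had 613, 732, 967 and 874 normalized counts in bigenic mice. In nontransgenic mice it had 1098, 1008, 1157 and 1356. The groups did not overlap, but bigenic mouse 3 lay close to nontransgenic mouse 2. The mean was 31.0% lower, with a log2 difference of -0.55 ± 0.15 (SE, limma adjusted p = 0.0164), and of -0.51 without bigenic mouse 2. Eri1 (uc009lky.2, chr8:36528319-36558587, minus strand, 7 exons), an exonuclease that trims histone mRNA ends and small RNAs, had 414, 424, 401 and 445 normalized counts in bigenic and 479, 481, 482 and 523 in nontransgenic mice. Every bigenic mouse was lower, by little. The mean was 14.3% lower, with a log2 difference of -0.22 ± 0.08 (SE, limma adjusted p = 0.0495), and of -0.23 without bigenic mouse 2. Over the other settings its adjusted p ran from 0.0156 to 0.114, with 6 of 16 below 0.05, so that its call rests on the setting.

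Ncbp1 (uc008stk.1, chr4:46151485-46185275, plus strand, 23 exons), the large subunit of the nuclear cap binding complex, had 1067, 935, 1157 and 1159 normalized counts in bigenic and 1576, 1425, 1499 and 1498 in nontransgenic mice. The groups were well apart. The log2 difference was -0.48 ± 0.09 (SE, limma adjusted p = 0.00256), and -0.41 without bigenic mouse 2. Exons of Ncbp1 overlap those of Tstd2 and Xpa on the opposite strand. Its partner Ncbp2, the subunit that contacts the cap, had 1516, 1146, 1486 and 1509 normalized counts in bigenic mice against 1501, 1398, 1470 and 1465. Apart from the low value in bigenic mouse 2 the groups lay together, and the log2 difference was -0.05, with an interval from -0.28 to 0.17 (limma adjusted p = 0.698), and 0.04 without bigenic mouse 2.

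The values of Slbp and Srrt turned on bigenic mouse 2. Slbp, the protein that binds the histone stem-loop, had 324, 486, 267 and 268 normalized counts in bigenic and 336, 329, 336 and 340 in nontransgenic mice. The other 3 bigenic mice were below all nontransgenic mice and bigenic mouse 2 was far above. The log2 difference was -0.04, with an interval from -0.43 to 0.35 (limma adjusted p = 0.872), and it was -0.23 without that mouse (adjusted p = 0.0636), in a range over settings of 0.00548 to 0.910. Its exons had 68.4% of 50-base windows that occur once. Srrt, which joins the cap binding complex to RNA processing factors, had 2228, 3749, 1948 and 1898 normalized counts in bigenic and 1847, 1945, 1911 and 2176 in nontransgenic mice. Srrt differed by 0.26 on the log2 scale (limma adjusted p = 0.309) with all mice and by 0.04 without bigenic mouse 2. Cpsf2, Cpsf3, Eri1, Lsm11, Slbp, Srrt and Sympk are members that the study also listed by their role in histone 3′ end processing.

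Other genes of these pathways, from a list of 44 symbols that were no members, had 9 higher, 5 lower and 24 not past the threshold among the 38 tested. That is 36.8%, close to the 35.9% of all genes tested. The Paf1 complex, which travels with RNA polymerase II and is linked to 3′ end formation, had 4 of 5 listed genes higher, while Paf1 itself had a log2 difference of 0.06. Of all genes tested 20.5% were higher, and this complex was not a group fixed beforehand, so nothing is read from its count. Leo1, Rtf1, Cdc73 and Ctr9 had log2 differences of 0.69, 0.45, 0.42 and 0.29 (limma adjusted p = 0.0178, 0.00264, 0.0255 and 0.00813). Cdk12, a kinase of the polymerase tail, had a log2 difference of 0.29, and Rdbp, a subunit of the pausing factor NELF, of 0.33. The NELF genes Whsc2, Cobra1 and Th1l, not past the threshold with all mice, had 0.10, 0.38 and -0.31. Without bigenic mouse 2 these were -0.03, 0.16 and -0.45. Casp8ap2, which takes part in histone gene expression, had 0.37. Tob2, which recruits CCR4-NOT to mRNA, had 0.56. The lower genes included Pan2, a deadenylase, at -0.30, and Ccrn4l, a relative of the deadenylases, at -0.31, together with Zfc3h1 at -0.37 and Ppp1ca, a phosphatase associated with CPSF, at -0.42. Of the ring proteins that the U7 particle shares with the spliceosome, Snrpe was at -0.64, Snrpd3 at 0.49 and Snrpb at 0.08. Snrpf and Snrpg were not among the genes tested. Paf1 and Snrpb (limma adjusted p = 0.795 and 0.588) and Whsc2, Cobra1 and Th1l were not past the threshold with all mice. The other 14 genes given with values here had a limma adjusted p below 0.05 with all mice and without bigenic mouse 2.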

How the data were processed

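Poly(A)+ RNA from the right cortex was sequenced in 4 bigenic and 4 nontransgenic mice. The authors trimmed reads with cutadapt, mapped them to mm9 with Bowtie 0.12.7, kept uniquely mapping reads, counted reads per exon with bedtools and merged exons into genes. The deposited values are a score, namely whole numbers obtained by scaling each mouse and rounding, so a count test was not run. The scaling is not given in the sources used here. The deposited second table gave symbols only; its mean signal, log2 fold changes, p-value and q-value columns, made by the authors with DESeq2, were not used. Column names place a mouse in a group but carry no replicate number.

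From these values, the worth of 1 read per column was estimated from the gaps between whole numbers (values up to 300). Here 3 reads, taken as a floor, equal 1.94 to 6.20 normalized counts, and the lowest value of any member was 64. This floor does not measure the counting error of higher values. A gene entered the test if it reached 10 RPM, relative to its column total, in 1 mouse or more, log2(value + 1) was compared with limma 3.58.1 (lmFit, eBayes with a trend) in R 4.3.3, and p was adjusted by Benjamini-Hochberg over 10588 genes at a threshold of 0.05. These differences understate the change of low genes. Ratios of pairs were tested by exact two-sided permutation over mice (scipy 1.17.1). The procedures were tested on simulated data.

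Named with values were the members past the threshold, the histone 3′ end genes listed by the study, the 6 ratio pairs, and the members with the highest and lowest difference in each of 8 roles. Wdr33, Fip1l1, Cpsf1, Cstf1, Cnot1, Cnot3, Cnot10, Ints12, Pcf11, Xrn2, Rbbp6, Ints4, Ints9, Ncbp2 and Pabpn1 were named after their values were seen. The members and lists were chosen with earlier results of these data known. Positions, exons, transcript lengths and windows come from GENCODE on mm9 (longest coding transcript). Alternatives were other pseudocounts (0.1 and 10), filters, scalings, weights, variance priors and thresholds, and each mouse left out; ranges of a p over settings leave out the thresholds. Exon-level splicing was not analysed here.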

Additional observations from a re-analysis of the deposited data

Results flagged for a closer look

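In 70 groups of 4 mice (the 29 named members and 6 ratios in both genotypes), 1 mouse lay far from the other 3 by Dixon's test in 3 groups. Chance alone gives about 5 percent of such groups, and none of the 3 was bigenic mouse 2. Ints1 had 2045 normalized counts in nontransgenic mouse 4, the highest of its group, against 1578, 1612 and 1596. Eri1 had 523 in the same mouse, against 479, 481 and 482. Nudt21 had 254 in nontransgenic mouse 1, against 217, 210 and 210. With the mouse in question left out, the log2 difference was 0.68 for Ints1 (limma adjusted p = 0.0193, in a range over settings of 1.76e-05 to 0.0612). It was -0.19 for Eri1 (limma adjusted p = 0.108, no longer past the threshold, in a range of 0.0156 to 0.114), and -0.51 for Nudt21 (limma adjusted p = 0.370, in a range of 0.111 to 0.800).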

How the results depend on the processing

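No paired analysis was possible because the columns carry no replicate number of the labels. The study describes no pairing of bigenic with nontransgenic mice, so replicate numbers would not by themselves have made pairs. With limma's array weights, which gave bigenic mouse 2 a weight of 0.0843, 26 members passed the threshold (17 higher, 9 lower) and 6455 of all genes. At an adjusted p below 0.01, 4 members (2 higher, 2 lower) and 2057 genes passed, and with a difference of at least 1.5-fold as well, 3 members (3 higher, 0 lower) and 1314 genes. Quantile normalization lowered the median log2 difference of the members from 0.081 to 0.042. With each mouse left out in turn, 7 to 19 members passed (4 to 12 higher, 3 to 7 lower) and 2654 to 4782 genes. The lowest count, 7, came without nontransgenic mouse 1, 2 or 3, and the highest without bigenic mouse 2. The median was then 0.049 to 0.095. All 13 called members kept their sign in all 8 of these fits, and 7 of them (Ssu72, Ncbp1, Pabpc4, Pabpc1, Cstf3, Cpsf3 and Lsm11) passed in each. The ratio differences, values with no test because 3 against 4 mice cannot give a p below 0.0571, were 0.27 to 0.53 (Cstf2t to Cstf2), -0.03 to 0.09 (Papolg to Papola), 0.07 to 0.18 (Cnot6l to Cnot6), -0.07 to 0.15 (Cnot8 to Cnot7), 0.06 to 0.32 (Cpsf7 to Cpsf6) and -0.01 to 0.15 (Cpsf3l to Cpsf3). The cause of these shifts was not tested. No difference of a called member changed sign under any alternative run.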
